A study of Homo sapiens with 4 samples.

Results

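FLT3, a receptor tyrosine kinase of blood progenitors, was followed together with 8 genes known as outputs of the transcription factor STAT5 downstream of it: the kinase genes PIM1, PIM2 and PIM3, the feedback inhibitor genes CISH, SOCS1, SOCS2 and SOCS3, and the cytokine gene OSM. The members were the rows of the deposited count table whose gene symbol is one of these 9 names. All 9 were found among 56638 symbols, and all 9 passed the filter on low counts that left 14018 genes to be tested. The cells were MV4;11, an established human acute myeloid leukaemia line that carries an internal tandem duplication of FLT3, used as the parental line with no further genotype given and grown in RPMI. The groups, of 2 libraries each, were compared after 24 h: vehicle, and CU-T12-9, a synthetic small molecule that activates the TLR1/TLR2 receptor heterodimer, at 1 µg/mL. The sample labels give the vehicle as DMSO and the treatment protocol gives PBS, so what DMSO itself contributes cannot be told apart from the agonist. All values come from 1 cell line, and counts per gene do not separate FLT3 transcripts with and without the duplication.

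FLT3 is normally switched on by its ligand, FLT3LG. The internal tandem duplication lies in the juxtamembrane region and lets the receptor signal without ligand. This form activates STAT5 strongly, beside the RAS-MAPK and PI3K pathways. STAT5 in turn drives genes such as PIM1, whose product promotes survival and translation, and CISH and SOCS2, whose products bind cytokine receptors and their kinases and dampen the same signal. SOCS1 and SOCS3 are feedback inhibitors that other cytokine and Toll-like receptor signals also induce.

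Library totals ran from 23087102 to 25867733 reads, and 1 read was worth 0.0384 to 0.0442 CPM (reads scaled by library size after TMM adjustment). Whether libraries of 1 group are separate cultures is not said, and the p-values therefore cover the spread among these libraries, possibly only technical. All 10 listed markers of myeloid blasts and monocytes had reads, with a summed level of 3419 to 3512 CPM under DMSO and 2712 to 2912 CPM under CU-T12-9. Of the 9 tested markers of this list 5 rose and 4 fell by the edgeR test, against 32% and 33.2% of all genes tested. Its primary granule genes did not move together. MPO fell 27.5-fold from a low level, 6.12 to 0.217 CPM, with 5 reads in each treated library. ELANE fell 6.97-fold, from 233 to 33.5 CPM, while AZU1 rose 1.10-fold, from 751 to 825 CPM. LYZ, the most abundant marker, fell from 2002 to 1276 CPM. ITGAM, PTPRC and CSF1R rose 4.18-fold, 2.45-fold and 1.60-fold. All 5 erythroid markers were at 0, the 5 T cell markers together reached at most 0.192 CPM in any library and the 4 B cell markers at most 1.11 CPM. The 4 megakaryocyte and platelet markers summed to between 6.81 and 7.02 CPM under DMSO and between 4.92 and 5.52 CPM under CU-T12-9, with PF4 and PPBP at 0. The 4 epithelial markers summed to between 5.37 and 6.22 CPM under DMSO and between 3.46 and 3.67 CPM under CU-T12-9, with EPCAM and KRT19 at 0 and KRT18 2.26-fold lower. The 4 fibroblast and stroma markers summed to between 0.0418 and 0.0768 CPM under DMSO and between 0.707 and 1.28 CPM under CU-T12-9, mostly through DCN, which had 21 and 15 reads in the treated libraries and 0 in the controls. The part of these marker shifts in the results below was not tested. In bulk RNA, fewer cells with a transcript and less of it per cell cannot be told apart.

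Under CU-T12-9 the outputs of the FLT3 and STAT5 axis split. OSM, PIM1, CISH, SOCS2 and FLT3 itself fell, while SOCS3, PIM3 and PIM2 rose, and SOCS1 did not pass the test. OSM fell 11.9-fold, PIM1 3.77-fold and CISH 2.13-fold, and SOCS3 rose 3.07-fold. FLT3, the most abundant of the 9 per length of transcript, changed only 1.24-fold. Among the 9 genes 8 were called (edgeR quasi-likelihood test, Benjamini-Hochberg adjusted p below 0.05), against 65.2% of all genes tested. By direction, 3 were higher, against 32% of all genes, and 5 were lower, against 33.2%. Libraries of the groups did not overlap for 8 of the 9, against 82.3% of all genes, so a call by itself sets little apart here and the sizes carry the description. Tested against a fold of 2, OSM, PIM1 and SOCS3 passed (3 of 9, against 12.8% of all genes). The median log2 fold change was -0.31 over the 9 genes and 0.00097 over all genes tested.

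**Figure D1:**
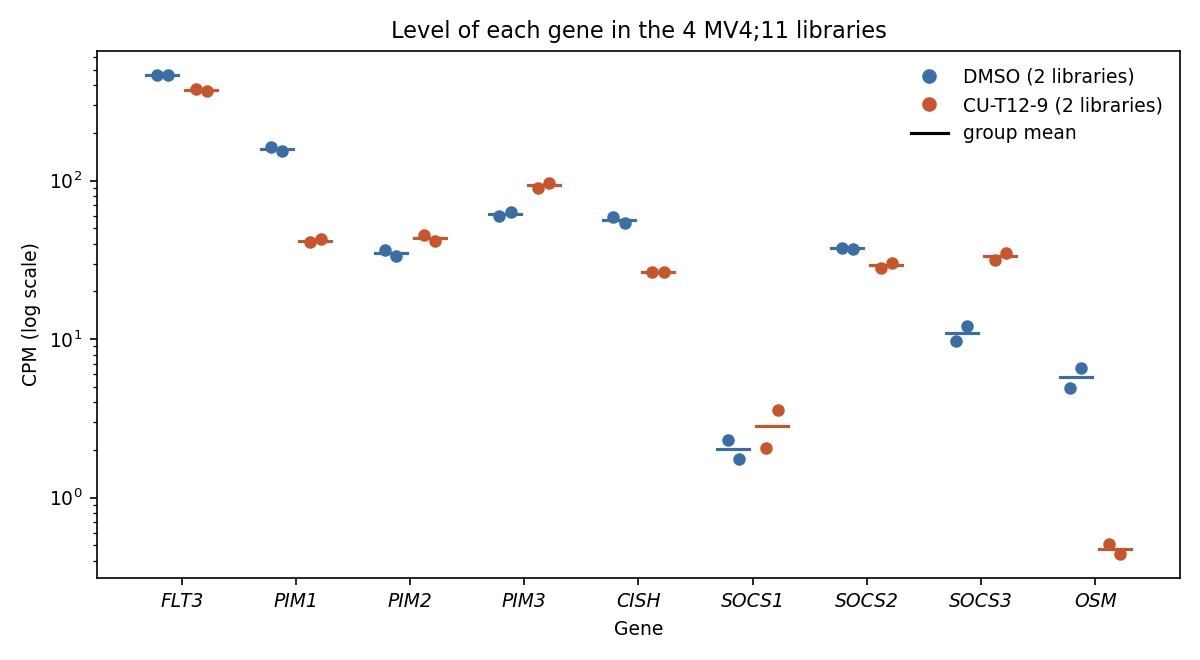
Level of each gene in CPM on a log axis, with 1 point per library (2 DMSO in blue, 2 CU-T12-9 in orange) and a bar at each group mean. The groups overlap for SOCS1 alone, and OSM drops from 5.77 to 0.478 CPM.

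The receptor gene came first in level. FLT3 stood at 467 and 461 CPM in the DMSO libraries and at 379 and 369 CPM in the CU-T12-9 libraries. Both treated libraries were below both controls, by a small margin. Its log2 fold change was -0.31 (SE 0.05, 95% interval -0.42 to -0.20, edgeR quasi-likelihood Benjamini-Hochberg adjusted p = 3.50e-04). Per kilobase of exon FLT3 went from 112 ± 0.903 to 89.9 ± 1.83 CPM (SD, n = 2 in each group). That placed it 310th of 12183 tested genes with a known length under DMSO and 378th under CU-T12-9. The ligand gene FLT3LG had 4 and 3 reads in the DMSO libraries and 5 and 4 in the treated ones, below the filter for testing. The genes whose pattern over the 4 libraries lay nearest to that of FLT3 were PSMB7, IKBKAP and BTN3A2, at distances of 0.00505, 0.00674 and 0.00991 on the centred log2 CPM scale. They were taken from 9927 candidates with a mean of at least 5 CPM. PSMB7, a proteasome subunit, went from 118 to 95.1 CPM.

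Several adaptors and kinases around the receptor had larger fold changes than FLT3. In this and the following lists, genes low in both groups were not tested and stand outside the counts, and 32% of all tested genes rose and 33.2% fell, around a median of 0.00097 on the log2 scale. Of 15 tested genes of the ligand, adaptor and negative regulator list (16 listed), 9 rose and 4 (SHC1, PTPN11, SLA2 and SYK) fell, and the median log2 fold change was 0.55. LYN, a Src family kinase that binds FLT3, rose from 133 ± 3.55 to 569 ± 22.9 CPM (SD, n = 2). PTPRJ, a phosphatase that acts on FLT3, rose 2.15-fold, and the ubiquitin ligase gene CBLB 2.19-fold. The adaptor genes GRB2 and GAB2 rose by 0.34 and 0.55 on the log2 scale. PTPN11, which encodes the phosphatase SHP2, fell by 0.21 on the log2 scale and SYK by 0.57. Of 7 transcription factors that act on the FLT3 gene, 6 rose and 1 fell, none by more than 0.63 on the log2 scale. SPI1 rose by 0.63 on that scale, MEIS1 by 0.46, CEBPA by 0.44 and HOXA9 by 0.43, while MYB fell by 0.40.

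**Figure D2:**
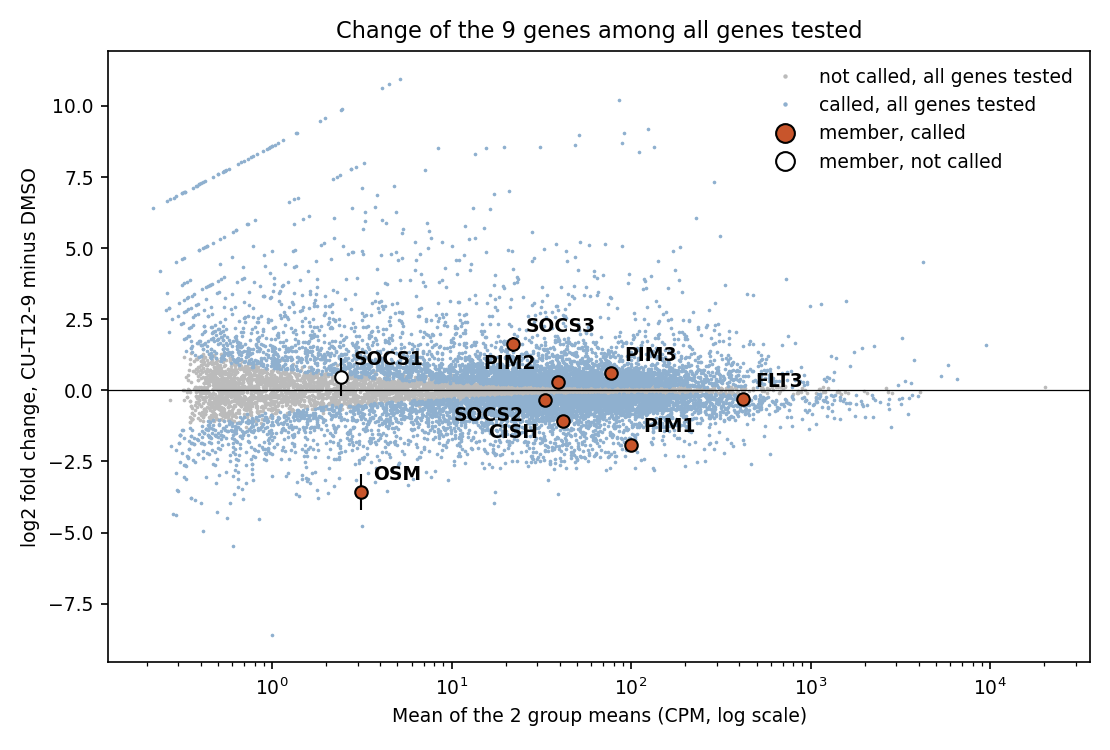
Log2 fold change (CU-T12-9 minus DMSO) of all 14018 tested genes against their mean level in CPM on a log axis, with the 9 genes named and given 95% intervals. OSM (-3.58), PIM1 (-1.91) and SOCS3 (1.62) lie farther from 0 than FLT3 (-0.31).

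The PIM kinases, serine/threonine kinases with shared substrates, did not move together. PIM1 stood at 162 and 153 CPM under DMSO and at 40.8 and 42.9 CPM under CU-T12-9. Its log2 fold change was -1.91 (SE 0.06, edgeR adjusted p = 1.16e-08). PIM3 went the other way, from 60.3 and 63.3 CPM to 89.7 and 97.3 CPM. This was a rise of 0.60 on the log2 scale (SE 0.06, edgeR adjusted p = 2.83e-05). PIM2 stood at 36.7 and 33.6 CPM and then at 45.3 and 41.4 CPM, a rise of 0.30 (SE 0.08, edgeR adjusted p = 0.00613). For PIM2 the groups were near each other, and without the second DMSO library the rise was 0.23 and did not pass.

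Within the family, the leading transcript changed. Per kilobase of exon PIM1 made up 59.1% and 57.6% of the PIM level in the DMSO libraries and 20.6% and 20.9% in the CU-T12-9 libraries. PIM3 made up 26.5% and 28.8%, and then 54.7% and 57.3%. PIM2 lay at 14.4% and 13.6%, and then at 24.7% and 21.8%. The summed level of the 3 genes was 92.3 and 89.3 CPM per kilobase under DMSO and 66.6 and 68.9 under CU-T12-9, so the rises of PIM3 and PIM2 made up for only part of the drop in PIM1. By reads alone the share of PIM1 went from 62.6% (exact 95% interval 61.4 to 63.8) and 61.3% (60.0 to 62.5) to 23.2% (21.9 to 24.5) and 23.6% (22.3 to 25.0). Such intervals hold the counting error within a library alone, not the spread between libraries. No molecular identifiers are recorded for the reads, so copies of the same molecule cannot be told from separate molecules.

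Genes of known PIM substrates went both ways, with 4 of 8 tested genes higher (CDKN1A, CDKN1B, AKT1S1 and FOXO3) and 3 lower (EIF4EBP1, BAD and CXCR4). EIF4EBP1, a translation repressor that PIM signalling inactivates, fell from 133 ± 0.364 to 50.3 ± 0.00320 CPM (SD, n = 2). The cell cycle inhibitor genes CDKN1A and CDKN1B rose 2.24-fold and 1.41-fold, and the transcription factor gene FOXO3 1.64-fold.

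**Figure D3:**
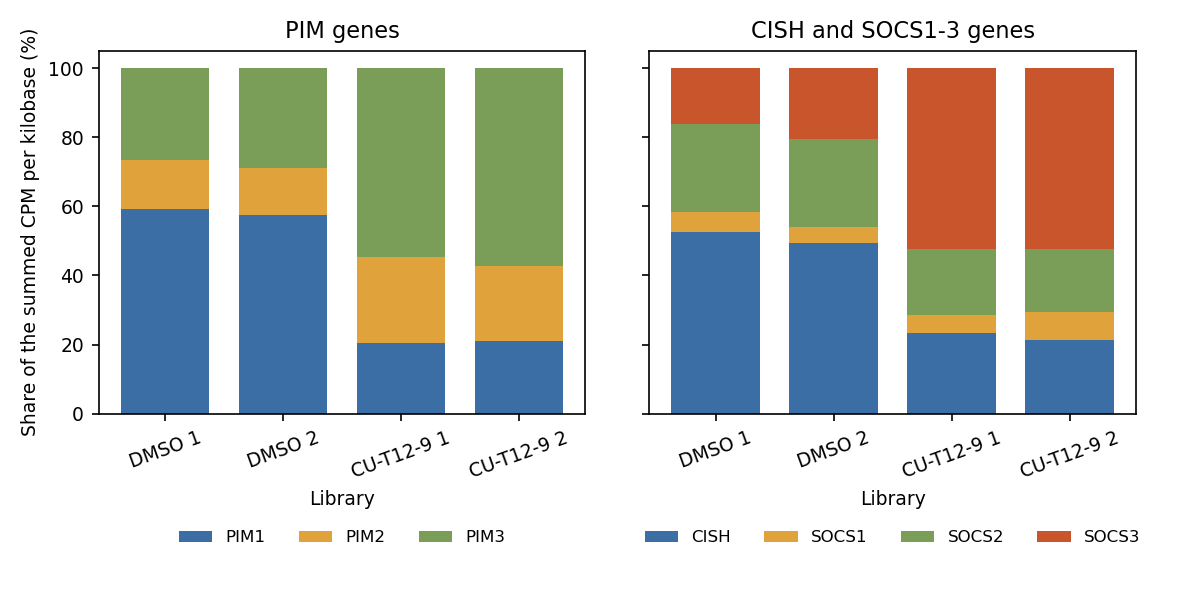
Share of each gene in the summed CPM per kilobase of its family (percent, from 0 to 100), 1 bar per library, for the PIM genes and for CISH with SOCS1 to SOCS3. PIM1 and CISH lead in both DMSO libraries, PIM3 and SOCS3 in both CU-T12-9 libraries.

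The 4 feedback inhibitors are SH2 domain proteins that bind phosphorylated receptors or kinases. CISH, the founding member and a direct STAT5 target, stood at 58.9 and 54.5 CPM under DMSO and at 26.4 and 26.7 CPM under CU-T12-9. The log2 fold change of CISH was -1.09 (SE 0.07, edgeR adjusted p = 9.42e-07), and its interval of -1.25 to -0.94 includes a fold of 2. SOCS2, which restrains growth hormone and FLT3 signalling, stood at 37.8 and 37.1 CPM and then at 28.3 and 30.3 CPM (log2 fold change -0.35, SE 0.07, edgeR adjusted p = 0.00167). Both genes were lower in both treated libraries, SOCS2 by the smaller margin. SOCS3, which blocks signalling through the IL6ST receptor chain, rose from 9.67 and 12.1 CPM to 31.6 and 35.1 CPM. This rise was 1.62 on the log2 scale (SE 0.11, edgeR adjusted p = 1.95e-06). SOCS1, which inhibits JAK kinases directly, had 60 and 42 reads in the DMSO libraries and 48 and 81 in the treated ones. These counts overlap, and the log2 fold change of 0.46 (SE 0.29, 95% interval -0.20 to 1.12) did not pass (edgeR adjusted p = 0.190). The value of SOCS1 rests on single libraries, being 0.84 without the first CU-T12-9 library and 0.0086 without the second. Each of these fits keeps a single treated library and cannot measure the spread under CU-T12-9.

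The makeup of this group changed more than its sum. The summed level of the 4 genes was 21.9 and 21.5 CPM per kilobase under DMSO and 22.0 and 24.5 under CU-T12-9, so the first treated library lay barely above the controls. The direction of this sum depends on the length scaling. CISH and SOCS2 have merged exons of 5112 and 6776 bases, and SOCS3 of 2734. In CPM not divided by length, the sum was lower in both treated libraries than in both controls. Per kilobase of exon, CISH made up 52.6% and 49.5% of the summed level in the DMSO libraries and 23.5% and 21.3% in the CU-T12-9 libraries. The next shares are on the same scale. SOCS3 went from 16.1% and 20.6% to 52.4% and 52.3%. SOCS2 held 25.5% and 25.4%, then 18.9% and 18.2%, and SOCS1 between 4.53% and 8.12% throughout. SOCS3 also led by reads alone in both treated libraries. SOCS3 had 35.7% (exact 95% interval 33.7 to 37.8) in the first CU-T12-9 library and SOCS2 32.0% (30.0 to 34.1), whose intervals overlap. In the second library they had 36.7% (34.6 to 38.7) and 31.7% (29.7 to 33.7), which do not. Shares within a library are parts of the same total, so overlap of these intervals is not a test between the genes.

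Exons of CISH share 218 bases with MAPKAPK3 on the opposite strand, in the GENCODE release 29 annotation, and no source used here states whether the counting used strand. MAPKAPK3 had 4679 and 4396 reads in the DMSO libraries and 2661 and 2730 in the treated ones (log2 fold change -0.63), a smaller fall than that of CISH, and its part in the CISH count was not tested. SOCS2 shares 277 bases with SOCS2-AS1, which had 60, 45, 77 and 50 reads, few beside the 661 to 985 reads of SOCS2.

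Start regions of the members were read for the STAT motif, TTCNNNGAA, whose reverse complement is the same letters. RefSeq promoters (250 bases before to 50 after the gene's start, GRCh38.p14) were found for 7 of the 9 genes: FLT3, PIM1, PIM2, PIM3, CISH, SOCS1 and SOCS3. CISH (chr3:50611725-50612024, minus strand) held 4 matches, beginning 241, 230, 129 and 112 bases before the start. Of 35116 promoters of this length, 7.66% held at least 1 match and 7 promoters (0.0199%) held 4 or more. No match was found in the windows of the other 6 genes, which says only that these letters are not in those 300 bases. A loose form of the NF-kB motif, GGGNNTTCC, searched on both strands, had no match in any of the 7 genes' windows and was in 6.58% of all promoters. The sequences below, 5′ to 3′ on the gene's strand, are shown because PIM1 (chr6:37169902-37170201, plus strand), CISH and SOCS3 (chr17:78360876-78361175, minus strand, the outer of its 2 listed starts) changed most among the 7. Capitals mark the STAT motif.
CISH: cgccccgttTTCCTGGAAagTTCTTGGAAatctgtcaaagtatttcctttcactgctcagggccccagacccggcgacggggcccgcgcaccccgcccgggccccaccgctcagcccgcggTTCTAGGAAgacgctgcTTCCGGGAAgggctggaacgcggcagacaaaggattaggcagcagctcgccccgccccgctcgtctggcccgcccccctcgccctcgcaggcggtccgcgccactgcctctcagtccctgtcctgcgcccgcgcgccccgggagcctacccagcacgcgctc
PIM1: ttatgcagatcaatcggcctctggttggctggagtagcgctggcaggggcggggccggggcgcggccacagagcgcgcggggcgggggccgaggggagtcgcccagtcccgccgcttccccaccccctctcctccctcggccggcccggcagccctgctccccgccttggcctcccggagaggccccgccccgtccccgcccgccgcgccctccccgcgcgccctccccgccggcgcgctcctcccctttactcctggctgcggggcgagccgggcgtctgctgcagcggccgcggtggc
SOCS3: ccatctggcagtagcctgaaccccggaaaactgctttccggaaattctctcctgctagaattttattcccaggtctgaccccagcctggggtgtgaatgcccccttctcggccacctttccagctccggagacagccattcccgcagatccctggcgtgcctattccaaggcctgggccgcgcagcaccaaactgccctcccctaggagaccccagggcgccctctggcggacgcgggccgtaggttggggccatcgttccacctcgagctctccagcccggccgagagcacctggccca
In CISH the matches form 2 close couples, TTCCTGGAA with TTCTTGGAA and TTCTAGGAA with TTCCGGGAA. A match describes the letters and does not show that a factor binds there.

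OSM, a cytokine of the interleukin-6 family made by myeloid cells, had the largest fold of the 9 genes. The DMSO libraries held 129 and 158 of its reads and the treated ones 12 and 10, that is 4.95 and 6.60 CPM against 0.513 and 0.442 CPM. The treated libraries were far below the controls, and still above the level of 3 reads. The log2 fold change of OSM was -3.58 (SE 0.27, 95% interval -4.20 to -2.95, edgeR quasi-likelihood Benjamini-Hochberg adjusted p = 3.72e-06). Its rank by level per length went from 7854th to 11286th of 12183 genes. The genes nearest to OSM in pattern were RNASE3, SLC38A5 and CPNE7, at distances of 0.216, 0.353 and 0.355 from 9928 candidates. OSM itself averaged below the minimum of 5 CPM asked of candidates, so genes at its level could not be named. RNASE3, a granule ribonuclease, went from 10.4 to 1.02 CPM.

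The receptors of OSM were unevenly present. IL6ST, the signalling chain shared by the family, rose from 17.8 ± 0.411 to 61.6 ± 4.82 CPM (SD, n = 2), while OSMR and LIFR, its partner chains for OSM, had too few reads to be tested. OSMR had 9 reads over both DMSO libraries and LIFR had 0. Of 7 tested genes among 13 listed receptors and ligands of the family, 2 rose and 3 fell. IL6R, the interleukin-6 receptor chain, fell by 0.39 on the log2 scale. IL31RA rose 1.52-fold, and the ligand genes CLCF1 and CNTF fell 2.69-fold and 1.92-fold, all below 4 CPM. DESeq2 did not make these last 3 calls (adjusted p = 0.108, 0.0658 and 0.150).

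All 10 tested JAK and STAT genes rose (11 listed), with a median log2 fold change of 1.02. STAT5A went from 38.7 ± 3.52 to 89.5 ± 4.52 CPM, 2.31-fold, whereas its close relative STAT5B rose by 0.16 on the log2 scale (SE 0.06, edgeR adjusted p = 0.0383). JAK3, the kinase that pairs with the common gamma chain, rose 13.9-fold from a low level of 3.09 CPM. STAT2, which carries interferon signals, rose 3.71-fold. Receptor chains that feed STAT5 rose in 7 of 10 tested cases (14 listed) and fell in 3 (CSF3R, EPOR and IL2RB). IL2RG, the common gamma chain, rose from 9.15 ± 0.176 to 86.6 ± 4.17 CPM. CSF2RA and CSF2RB, the chains of the GM-CSF receptor, rose 5.65-fold and 3.23-fold, and IL7R 5.08-fold. Among other SOCS genes and JAK-STAT inhibitors 7 of 11 rose and 1, PIAS2, fell, with called changes of at most 0.66 on the log2 scale. PTPN6, the phosphatase SHP1, and PTPN1 rose 1.58-fold and 1.55-fold, PIAS3 1.46-fold and SOCS5 1.27-fold. SOCS5 did not pass without the second DMSO library.

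Other genes reported as STAT5 outputs also went in both directions. Of 11 tested (13 listed), 3 rose and 6 fell, and the median log2 fold change was -0.21. CDC25A, a cell cycle phosphatase, fell from 84.2 ± 2.18 to 15.8 ± 0.185 CPM (SD, n = 2). ID1, an inhibitor of differentiation factors, fell 8.40-fold to 0.326 ± 0.0383 CPM. BCL6, a repressor, rose 4.81-fold from 0.856 ± 0.147 CPM. The survival genes MCL1 and BCL2L1 rose by 0.47 and 0.34 on the log2 scale, while MYC fell by 1.01. The D cyclin gene CCND2 went from 41.8 ± 1.3 to 47.7 ± 5.01 CPM and did not pass (log2 fold change 0.19). CCND1 did not pass either, while CCND3, the most abundant D cyclin gene, fell from 184 to 159 CPM (edgeR adjusted p = 0.00858).

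RAS-MAPK output genes, the other main arm of FLT3 signalling, also went both ways, with 5 of 13 tested genes higher (DUSP4, DUSP5, SPRED2, PHLDA1 and IER3) and 4 lower (DUSP6, ETV4, ETV5 and FOSL1), of 15 listed. DUSP4, a MAPK phosphatase, rose from 19.7 ± 0.0153 to 147 ± 7.88 CPM, IER3 6.65-fold from a low level of 1.25 CPM and PHLDA1 3.47-fold. ETV4 fell 4.20-fold from 3.39 ± 0.421 CPM. DUSP6, a feedback phosphatase of ERK, fell by 0.45 on the log2 scale and ETV5 by 0.47, and EGR1 did not pass (log2 fold change -0.13).

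**Figure D4:**
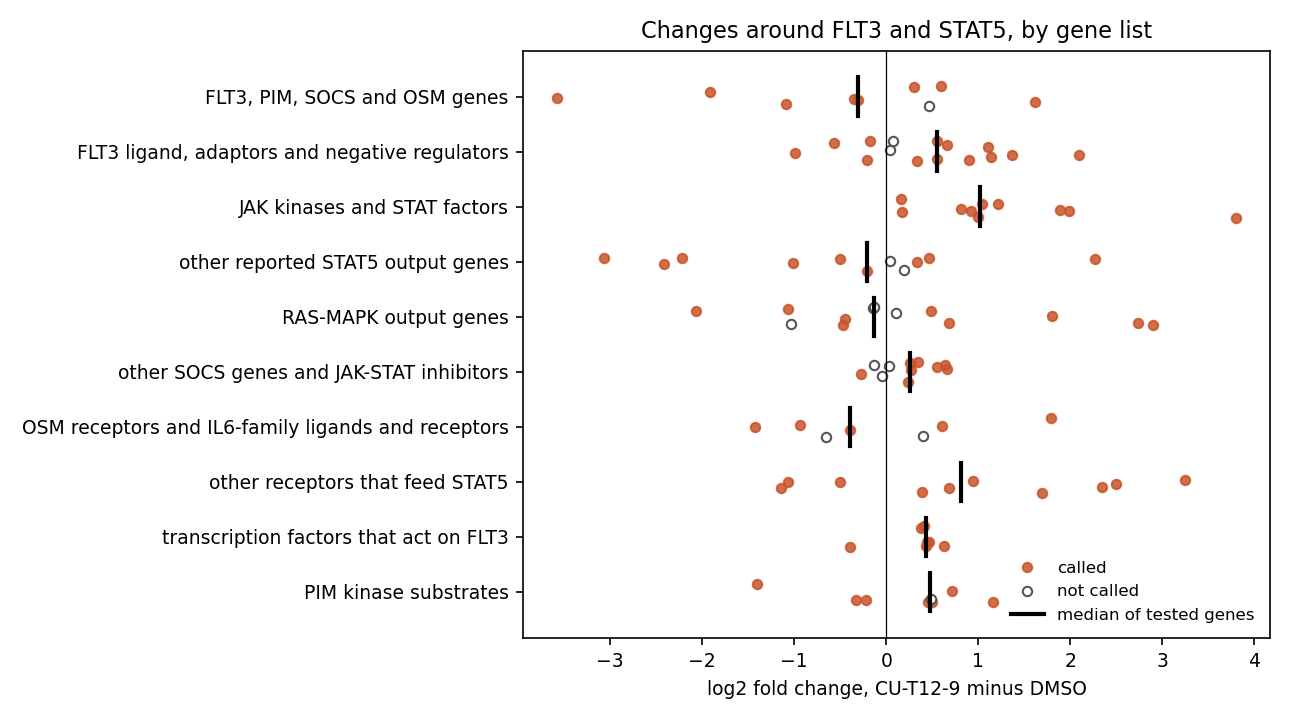
Log2 fold change (CU-T12-9 minus DMSO) of each tested gene by list, filled where called and open where not, with a bar at the list's median. The JAK and STAT genes lie to the right of 0 (median 1.02), and the 9 genes spread from -3.58 to 1.62 around a median of -0.31.

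Per kilobase of exon, the order of the 9 genes under DMSO was FLT3, PIM1, PIM3, PIM2, CISH, SOCS2, SOCS3, OSM and SOCS1, from 112 to 1.13 CPM per kilobase. Under CU-T12-9 it was FLT3, PIM3, PIM2, PIM1, SOCS3, CISH, SOCS2, SOCS1 and OSM, from 89.9 to 0.226. Libraries of neighbours in these orders did not overlap, though some lay close. Under CU-T12-9 PIM2 stood at 16.4 and 15.0 CPM per kilobase and PIM1 at 13.7 and 14.4. The lengths are those of all annotated exons merged, 4159 bases for FLT3 and 6776 for SOCS2, which exceed any single transcript where isoforms differ, so close neighbours could change places with other lengths.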

How the data were processed

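RNA was sequenced from 2 DMSO and 2 CU-T12-9 libraries of MV4;11. The values the authors deposited are unnormalised counts of reads for each gene symbol. The tools were FastQC 0.11.7, TopHat2 (on GRCh37) and featureCounts 1.5.2, per the submitters' processing notes. Not given in the sources used here were the annotation, the strand setting and how multi-mapping reads were treated. Counts were tested in R 4.3.3 by edgeR 4.0.16, quasi-likelihood test (group as the only term, filterByExpr, TMM, Benjamini-Hochberg adjustment over all 14018 genes tested, threshold 0.05). The test was run on simulated data in which far fewer genes changed than were called here. That check does not cover changes as widespread as these. Standard errors were taken as the absolute log2 fold change over the root of F. Levels per kilobase use merged exon lengths of GENCODE release 29 (GRCh38), matched by symbol for 12183 tested genes. Coordinates are given for RefSeq promoters alone, on GRCh38.p14. Alternatives were DESeq2 1.42.0, limma-voom (limma 3.58.1), 3 other scalings, 2 other filters, each library left out, a replicate block and a null of a fold of 2. The members, the 9 pathway lists (108 genes) and the cell type markers were chosen with earlier results of these data known. The text names all members and, from each list, up to 4 called genes with the largest change. Other list genes named, such as GRB2, STAT5B, IL6R and MYC, were chosen after their values were seen, and 3 genes that the rule names are not reported here. For FLT3 and the member with the largest change the 3 nearest genes in pattern are named (Euclidean distance of centred log2 CPM).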

Additional observations from a re-analysis of the deposited data

How the results depend on the processing

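Apart from the test against a fold of 2, FLT3, PIM1, PIM3, CISH, SOCS2, SOCS3 and OSM kept their direction and their call under all 12 alternatives. The log2 fold change of FLT3 lay between -0.33 and -0.28. Leaving out 1 library gave PIM2 values of 0.23 to 0.37 and SOCS1 values of 0.0086 to 0.84, and these were the members whose call changed. Such a fit leaves a group with a single library, so its calls rest on the spread within the other group. Tested against a fold of 2 with edgeR, 1013 genes were higher and 778 lower, and of the members 1 was higher and 2 lower. FLT3 (-0.31), PIM2 (0.30), PIM3 (0.60), CISH (-1.09, adjusted p = 0.214) and SOCS2 (-0.35) did not pass that test. Of 36 other genes named by rule, 15 did not pass it. The rule picked called genes with the largest changes, whereas 12.8% of all genes tested passed. This test keeps the log2 fold changes of the test against no change, so no direction could reverse. Scalings moved the median of all genes by little, between -0.014 and 0.028 on the log2 scale. Libraries with the same number in their titles did not deviate together across genes (correlation 0.00795). Each group gives a single difference, so this value cannot settle whether such libraries were prepared together. With the replicate block 4488 genes were higher and 4655 lower, and the members' counts were 3 and 5 as without it. SOCS1 had 42 to 81 reads a library; genes below the filter on low counts were not tested.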
